A study of Mus musculus with 8 samples.

Results

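The complement components described are C1qa, C1qb and C1qc for the C1q chains, C1s1 for C1s, and C2, C4b, C3, Cfb for factor B and Serping1 for the C1 inhibitor. All 9 passed the filter on low counts, and they are 9 of the 23282 gene lines in the table, chosen by name. For 8 of them a line carries that name, and C1s was found through its alias on the line C1s1.

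Complement is a cascade of plasma and tissue proteins that tags microbes and damaged cells. The classical pathway starts when C1q, a bundle of A, B and C chains present in equal numbers, binds a target and activates the attached proteases C1r and C1s. C1s then cleaves C4 and C2, the alternative pathway adds factor B, and both routes converge on C3, the central component. In the intestine C1q is known as a product of tissue macrophages, while epithelial and stromal cells make C3 and factor B.

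Intestinal tissue of wild type C57BL/6 mice was sequenced from 8 libraries in 4 groups, with 2 libraries in each. ExDSS mice received 1 mg of bovine colostrum exosomes by gavage each day for 3 weeks and then 3% dextran sodium sulfate (DSS), which injures the gut epithelium, in drinking water for 6 days. PC mice received phosphate buffered saline by gavage and then the same DSS, Ex mice the exosomes and no DSS, and NC mice saline and no DSS. The sources used here give neither gut region nor age, and no label states whether a pair of libraries stands for 2 mice. The p-values therefore reflect only library-to-library spread, possibly technical. In bulk tissue, fewer cells of a type and less RNA per cell cannot be told apart.

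Total counts were between 8813622 and 12308537 in 7 libraries and 1163147 in Ex 2. Several features of the libraries bear on the values below. Ex 2 hardly held intestinal transcripts: the ribosomal precursor Rn45s took 53.5% of its counts, 12 epithelial markers summed to 61.0 CPM (counts scaled to a common library total), against 4952 to 7468 CPM in the other 7 libraries, and the 9 complement genes had between 0 and 8 counts each. The group Ex therefore rests on Ex 1 for these genes. Further, 11 markers of pancreatic acinar cells summed to 249500 CPM in ExDSS 1 and 99300 in NC 2, and to between 89.8 and 487 CPM in the other 6. Of 4233 genes with at least 20 CPM in each of PC 1, PC 2, Ex 1 and NC 1, 339 (8.01%) were under 1 CPM in ExDSS 1, 54 (1.28%) in ExDSS 2, 678 in Ex 2 and 46 (1.09%) in NC 2. Finally, 10 neutrophil markers summed to 3133 and 1948 CPM in ExDSS, 11.4 and 10.7 in PC, 12.5 and 7.43 in Ex, and 2456 and 2236 in NC. DSS colitis recruits neutrophils, so the libraries labelled PC and NC go against their labels in this respect. Every direction below is that of the libraries as labelled, and an exchange of the labels PC and NC was not tested.

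Promoter sequences were at hand for C1qb, C1qc, C1s1 and C3, 4 of the 9 genes, from RefSeq on build GRCm38.p6. All members with a sequence at hand are shown. Of these, C1qb, C1s1 and C3 separated the libraries and C1qc, from the same chromosome as C1qb, did not. A link between promoter and pattern was not tested. Each is the 250 bases before a gene start, 5′ to 3′ on the gene's strand. Capitals mark letters that match a motif on either strand: the interferon motif ISRE, the NF-kB motif kB or the C/EBP motif (TTNNGNAA). For C1s1, which has 2 listed starts, the window before the upstream start is shown.

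C3 promoter, chr17:57228137-57228386, - strand: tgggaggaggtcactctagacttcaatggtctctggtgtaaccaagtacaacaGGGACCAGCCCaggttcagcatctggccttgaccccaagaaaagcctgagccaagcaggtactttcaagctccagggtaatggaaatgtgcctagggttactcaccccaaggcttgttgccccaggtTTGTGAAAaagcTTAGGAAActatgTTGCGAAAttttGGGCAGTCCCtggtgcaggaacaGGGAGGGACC

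C1qb promoter, chr4:136886201-136886450, - strand: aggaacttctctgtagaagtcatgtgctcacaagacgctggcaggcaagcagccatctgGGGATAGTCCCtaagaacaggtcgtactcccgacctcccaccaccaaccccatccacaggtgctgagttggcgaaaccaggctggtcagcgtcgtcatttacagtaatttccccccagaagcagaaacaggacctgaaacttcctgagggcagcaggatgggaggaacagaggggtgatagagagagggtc

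C1qc promoter, chr4:136892915-136893164, - strand: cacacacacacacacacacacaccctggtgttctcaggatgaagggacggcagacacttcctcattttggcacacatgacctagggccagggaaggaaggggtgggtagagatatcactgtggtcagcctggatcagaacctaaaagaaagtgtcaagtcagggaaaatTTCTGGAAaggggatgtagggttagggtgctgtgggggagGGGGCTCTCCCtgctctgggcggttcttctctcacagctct

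C1s1 promoter, chr6:124542360-124542609, - strand: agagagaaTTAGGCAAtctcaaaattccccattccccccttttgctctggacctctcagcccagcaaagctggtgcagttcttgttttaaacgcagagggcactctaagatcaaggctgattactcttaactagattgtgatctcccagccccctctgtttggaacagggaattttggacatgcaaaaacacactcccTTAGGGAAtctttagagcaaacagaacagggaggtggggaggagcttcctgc

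The C3 window held 3 C/EBP matches, at 70 to 63, 58 to 51 and 45 to 38 bases before the start, which 2.61% of 32851 such windows equal or exceed. A share by number of matches was worked out for this case only, so it is not read as enrichment. The C3 window also held 4 kB matches, 2 of them overlapping. The C1qb window held 2 overlapping kB matches and no C/EBP match. The C1qc window held 2 overlapping kB matches and 1 C/EBP match, and the C1s1 window shown 2 C/EBP matches and no kB match. The window before the other C1s1 start held 1 kB match and 1 C/EBP match. None of the 4 windows held an ISRE match. At least 1 match is common for kB (45.8% of all windows) and C/EBP (36.8%), and rarer for ISRE (2.98%). A match is a run of letters and not a shown site.

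The C1q chains disagreed with each other: C1qa and C1qb separated the libraries and C1qc did not. Values are CPM normalised for library composition, which in 3′ libraries count transcript ends and are not divided by length, so levels are compared between libraries and not between genes. C1qa, the A chain (chromosome 4, 136895916 to 136898844, minus strand), was at 1340 and 1540 CPM in ExDSS 1 and 2, 37.8 and 58.3 in PC, 49.3 and 7.43 in Ex, and 236 and 1332 in NC. All ExDSS and NC libraries lay above all PC and Ex libraries, but NC 1 was 5.65-fold below NC 2. C1qb, the B chain (chromosome 4, 136880145 to 136886177), was at 697 and 1069 CPM in ExDSS, 50.3 and 69.8 in PC, 67.8 and 0 in Ex, and 341 and 908 in NC. It split the libraries in the same way as C1qa. C1qc, the C chain (chromosome 4, 136889802 to 136892914), was at 42.5 and 221 CPM in ExDSS, 47.1 and 59.6 in PC, 58.0 and 1.49 in Ex, and 85.3 and 52.0 in NC. For C1qc the groups overlapped: ExDSS 1 was below both PC libraries, and NC 2 lay between PC 1 and PC 2.

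**Figure D1:**
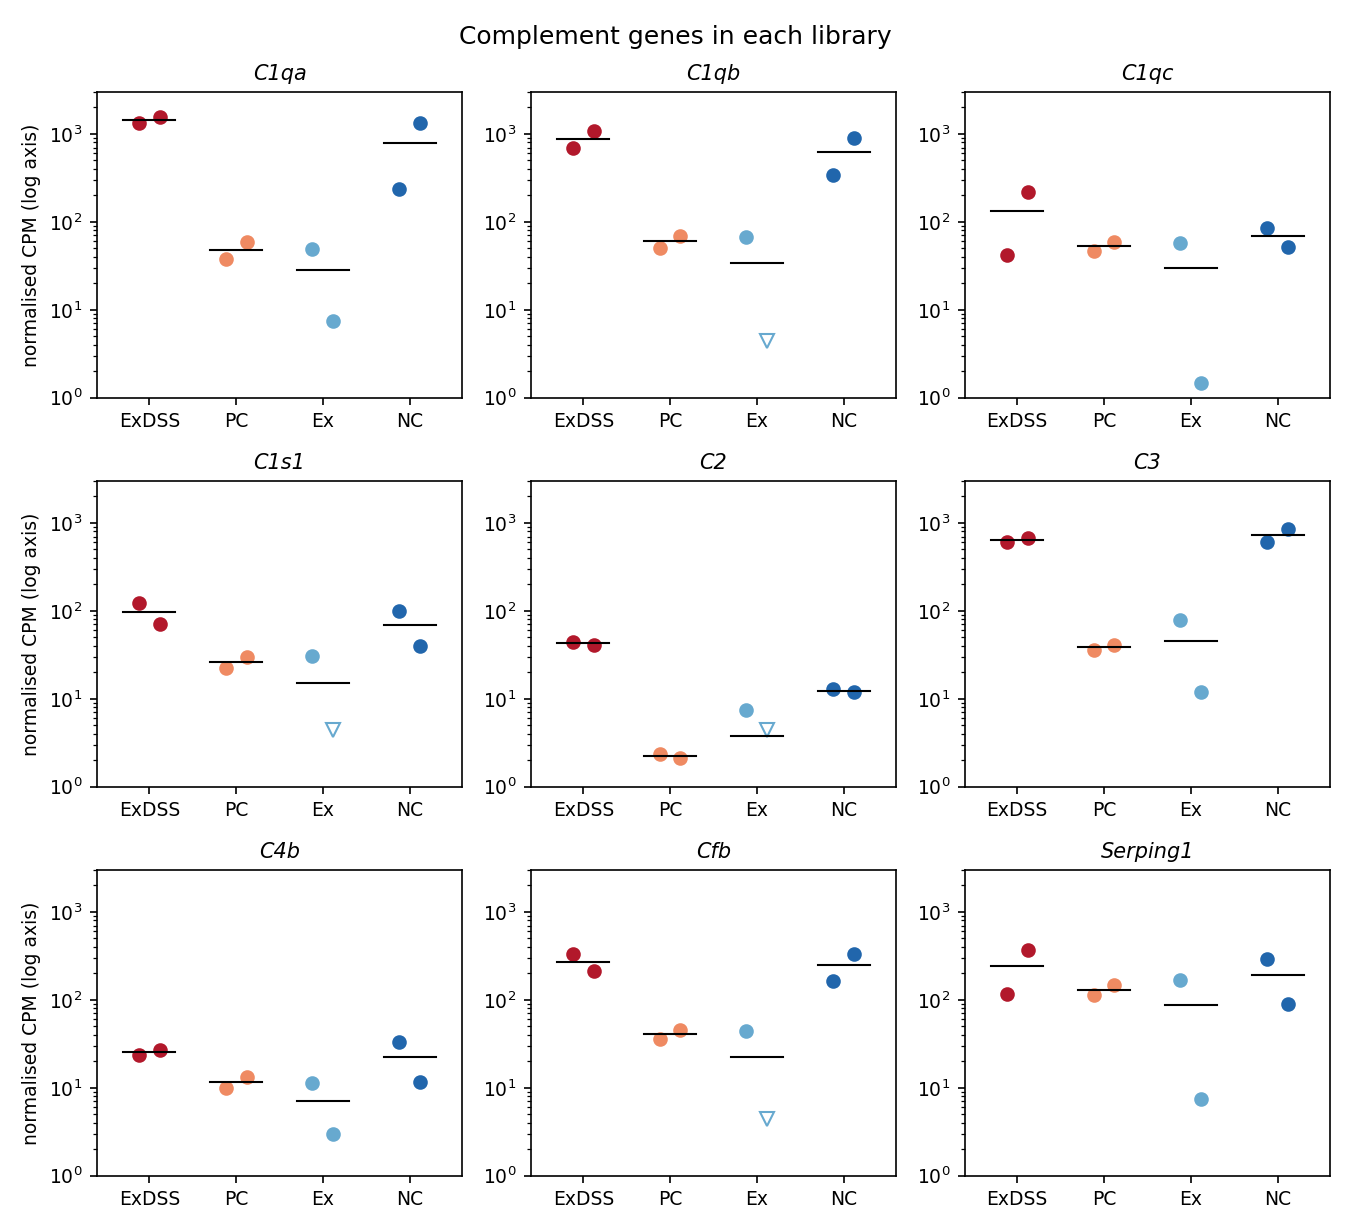
Normalised CPM of the 9 complement genes on a log axis, by group (ExDSS, PC, Ex, NC). Points are libraries, horizontal lines are means of 2 libraries, and open triangles stand at the level that a count of 0 allows (3 counts, or 4.46 CPM, in Ex 2). C1qa, C1qb, C1s1, C2, C3 and Cfb are higher in every ExDSS and NC library than in every PC and Ex library; C1qc, C4b and Serping1 are not.

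The chains share a protein in equal numbers, so their proportions within a library were compared, which needs no scaling between libraries. C1qc made up 2.04% of the C1q counts in ExDSS 1 (exact Clopper-Pearson 95% interval 1.83 to 2.28%) and 7.80% in ExDSS 2 (7.51 to 8.09%). It made up 34.8% in PC 1 (32.7 to 37.0%), 31.8% in PC 2 (29.9 to 33.7%) and 33.1% in Ex 1 (30.9 to 35.4%). In NC 1 its share was 12.9% (12.2 to 13.6%) and in NC 2 2.27% (2.08 to 2.46%). The 4 libraries with abundant C1qa and C1qb thus had C1qc shares far below those of PC and Ex 1, beyond counting error, which is all the intervals cover. These libraries also differed in how many genes had a count. The numbers were 9825 and 11874 in ExDSS, 16787 and 16790 in PC, 16374 in Ex 1, and 16123 and 12683 in NC. The part of this difference in the C1qc shares was not tested. C1qa made up 64.4% in ExDSS 1 and 54.4% in ExDSS 2, 28.0% in PC 1 and 31.1% in PC 2, 28.2% in Ex 1, and 35.6% in NC 1 and 58.1% in NC 2. C1qb varied less, between 33.5% in ExDSS 1 and 51.5% in NC 1 over the 7 libraries other than Ex 2. Ex 2 had 6 C1q counts in all, 5 of them C1qa. This comparison was chosen after its values were seen and has no test. No other line of the table overlaps C1qa, C1qb or C1qc.

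**Figure D2:**
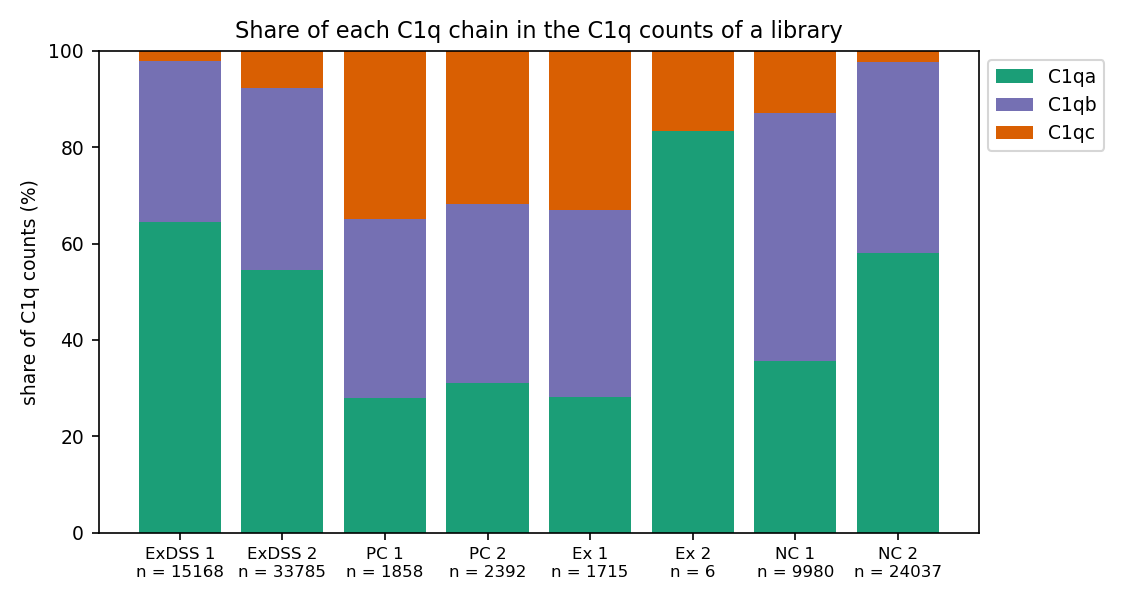
Share of C1qa, C1qb and C1qc in the C1q counts of each library (percent), with the number of C1q counts under each bar. In PC 1, PC 2 and Ex 1 the 3 chains have shares between 28.0% (C1qa in PC 1) and 38.7% (C1qb in Ex 1). C1qc is between 2.04% and 12.9% in the ExDSS and NC libraries. The bar of Ex 2 rests on 6 counts.

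Macrophage markers moved with the chains in part. The 14 macrophage markers summed to 799 and 1231 CPM in ExDSS, 241 and 321 in PC, 284 and 17.8 in Ex, and 1007 and 652 in NC. Adgre1, which encodes the macrophage antigen F4/80, was at 57.6 and 106 CPM in ExDSS, 6.91 and 8.24 in PC, 10.6 and 0 in Ex, and 48.1 and 24.1 in NC. Over the 7 libraries other than Ex 2, 8 of the 14 markers were higher in each ExDSS and NC library than in PC and Ex 1, and Mertk, under 1 CPM throughout, was lower in each. Lyz2, a lysozyme of macrophages, was not among them, with 34.4 and 62.2 CPM in ExDSS, 46.6 and 76.4 in PC, 65.3 in Ex 1, and 116 and 6.68 in NC. The share of all genes higher in this way was counted only with Ex 2 included, a stricter rule that 8.48% met. Per CPM of the summed markers, C1qa was at 1.68 and 1.25 in ExDSS, 0.157 and 0.181 in PC, 0.174 in Ex 1, and 0.234 and 2.04 in NC. On the same scale C1qc was at 0.0532 and 0.179 in ExDSS, 0.195 and 0.186 in PC, 0.204 in Ex 1, and 0.0847 and 0.0797 in NC. C1qa thus exceeded its PC and Ex 1 ratios in the ExDSS and NC libraries, and C1qc was lower in all 4 of them. In the interaction 13 of the 13 tested macrophage markers were positive (median 5.83) and edgeR called 0 of them, with 7 at an unadjusted p under 0.05, against 5.86% of all genes. The part of macrophage number in these differences was not tested.

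C3 and Cfb, the components that epithelium and stroma can make, were both high in ExDSS and NC. C3 (chromosome 17, 57203967 to 57228136) was at 603 and 672 CPM in ExDSS, 36.2 and 41.0 in PC, 78.9 and 11.9 in Ex, and 605 and 853 in NC. The higher of 2 libraries exceeded the lower by 1.12-fold in ExDSS, 1.13-fold in PC and 1.41-fold in NC. Cfb (chromosome 17, 34856374 to 34862514), the protease subunit of the alternative C3 convertase, was at 330 and 211 CPM in ExDSS, 36.0 and 45.3 in PC, 44.2 and 0 in Ex, and 165 and 335 in NC. Both genes were high in every ExDSS and NC library and low in every PC and Ex library. In ExDSS 1 and NC 2, the libraries rich in acinar transcripts, C3 was at 603 and 853 CPM and Cfb at 330 and 335 CPM, and in ExDSS 2 and NC 1 C3 was at 672 and 605 CPM and Cfb at 211 and 165 CPM. The part of the acinar transcripts in these levels was not tested. Epithelial markers were mixed, with sums of 5203 and 4952 CPM in ExDSS, 5776 and 5627 in PC, 6764 in Ex 1, and 5535 and 7468 in NC. Over the 7 libraries other than Ex 2, 3 of the 12 epithelial markers (Krt18, Krt20 and Cldn7) were higher in each ExDSS and NC library than in PC and Ex 1, and 5 were lower in each (Epcam, Lgals4, Tspan8, Elf3 and Phgr1). Fibroblast and stromal markers summed to 3990 and 3929 CPM in ExDSS, 1633 and 2349 in PC, 2765 in Ex 1, and 4688 and 4061 in NC, and 7 of the 12 were higher in each ExDSS and NC library than in PC and Ex 1. Of all genes, 8.48% were higher in this way under the stricter rule with Ex 2 included, and the share without Ex 2 was not counted. The part of epithelial and stromal differences in C3 and Cfb was not tested. The 10 hepatocyte markers summed to 214 CPM in Ex 1, of which Ttr made 167 CPM, and to 53.3 and 23.1 CPM in ExDSS, 76.3 and 130 in PC, and 18.2 and 38.7 in NC, and their part was not tested.

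Among the classical pathway proteases and C4, C2 and C1s1 separated the libraries and C4b did not. C2 (chromosome 17, 34862602 to 34882100), which pairs with C4b in the classical convertase, was at 44.7 and 41.4 CPM in ExDSS, 2.33 and 2.12 in PC, 7.46 and 0 in Ex, and 12.8 and 11.8 in NC. It was the only member whose ExDSS libraries both exceeded both NC libraries by more than 3-fold, a split noticed after its values were seen. C1s1 (chromosome 6, 124530344 to 124542359) was at 124 and 70.4 CPM in ExDSS, 22.6 and 29.7 in PC, 30.5 and 0 in Ex, and 98.4 and 39.7 in NC. C4b (chromosome 17, 34728381 to 34743897) was at 23.4 and 27.1 CPM in ExDSS, 9.82 and 13.3 in PC, 11.3 and 2.97 in Ex, and 33.0 and 11.6 in NC. Its NC 2 value lay within the PC values. C4b and C1s1 have close copies, C4a and C1s2, and the sources used here do not say how reads were divided between copies. C4a took 3.39% of the counts of C4a and C4b in ExDSS 1 and 43.3% in ExDSS 2, against 10.6% to 20.7% in PC and Ex 1, and 15.6% and 6.87% in NC, so levels of either copy are uncertain.

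Serping1 (chromosome 2, 84765360 to 84775429), which encodes the inhibitor of C1r and C1s, was at 117 and 370 CPM in ExDSS, 114 and 146 in PC, 168 and 7.43 in Ex, and 295 and 89.5 in NC. Its groups overlapped: NC 2 was below both PC libraries, and ExDSS 1 lay between them. The order of group means was ExDSS, NC, PC and Ex for C1qa, C1qb, C1qc, C1s1, C4b, Cfb and Serping1. For C2 it was ExDSS, NC, Ex and PC, and for C3 it was NC, ExDSS, Ex and PC. The libraries of ExDSS and NC overlapped for all members but C2 and C1qa, the latter by a narrow margin (1340 CPM in ExDSS 1 and 1332 in NC 2). Those of PC and Ex overlapped for all 9. The share of all genes that overlapped was not counted, so these overlaps are not read as results about the members. The nearly empty Ex 2 lay below both PC libraries for all 9 members. Ex 1 lay above both PC libraries for C1s1, C2, C3 and Serping1, so for these the overlap of PC and Ex rests on Ex 2. PC and NC did not overlap for C1qa, C1qb, C1s1, C2, C3 and Cfb, each lower in PC, as in 23.6% of all genes.

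Patterns were compared as the root mean square distance between row-centred log2 CPM, over the 7 libraries other than Ex 2. C1qc lay closest to Serping1 (0.36 log2 units) and far from C1qa (2.12). C1qb lay closest to C3 (0.51), then to C1qa (0.56) and Cfb (0.60). C1s1 and C4b were 0.39 apart. The distances are descriptions of 7 libraries. With Ex 2 included, C1qc and Serping1 were 0.45 apart, but C1qb was 2.08 from C3, 1.81 from C1qa and 0.67 from Cfb, and C1s1 was 1.88 from C4b. The short distances of C1qb to C3 and C1qa and of C1s1 to C4b therefore hold only without Ex 2, in which C1qb and C1s1 had 0 counts.

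**Figure D3:**
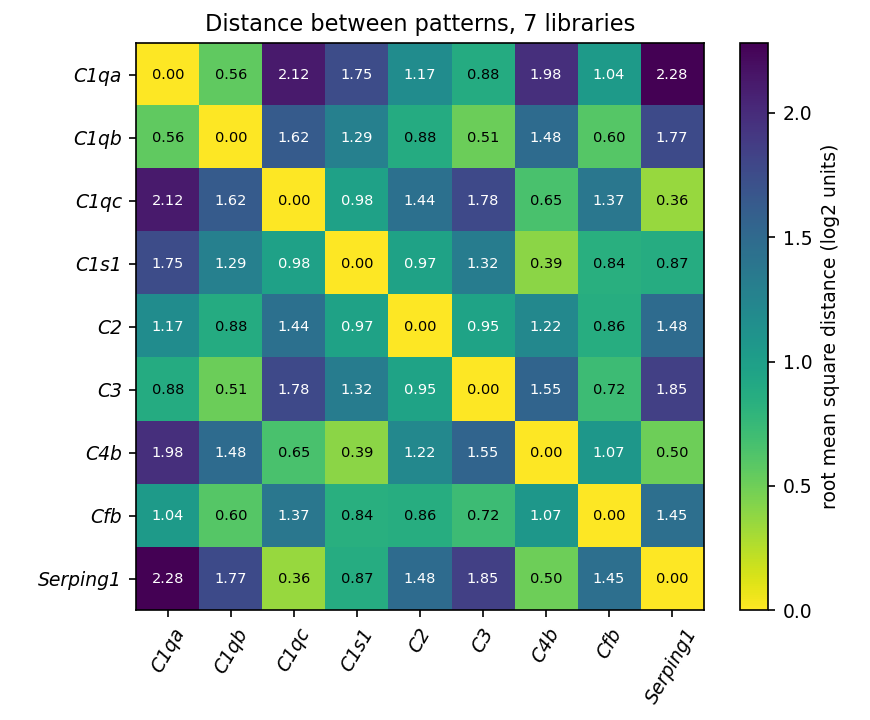
Root mean square distance (log2 units) between the row-centred log2 CPM of each pair of complement genes over 7 libraries, without Ex 2; both axes list the genes, and yellow cells are closer. C1qc and Serping1 are 0.36 apart, whereas C1qc and C1qa are 2.12 apart.

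Among 5521 other genes with a mean of at least 20 CPM, the closest to the mean of the C1q chains over all 8 libraries were Cd84 (0.29 log2 units), Cytip (0.35), Ms4a7 (0.36), Ppp1r3c (0.37) and Pld4 (0.37). The chains themselves lay farther from this mean, C1qa at 1.02, C1qb at 1.18 and C1qc at 1.27, so it stands for none of them. The closest to C3 were Ifitm1 (0.39), Crlf2 (0.44), Adm (0.58), Tap1 (0.59) and Grrp1 (0.62). For Cfb they were Bgn (0.35), Psmb8 (0.39), Ccl27a (0.40), Crispld2 (0.40) and Cd52 (0.43), and for Serping1 they were Scoc (0.22), Sh3bp5 (0.25), Cgnl1 (0.36), Cdh1 (0.40) and Eps15 (0.45). Without Ex 2, Cd84, Cytip and Ms4a7 stayed among the 5 closest to the C1q mean, Ifitm1 to C3, Bgn to Cfb, and Scoc and Sh3bp5 to Serping1.

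PC against NC addresses DSS without exosomes. C3 averaged 38.6 ± 3.41 CPM in PC and 729 ± 176 in NC (SD, n = 2 each), a log2 fold change of -4.24 (SE 1.51). C1qa averaged 48.1 ± 14.5 CPM in PC and 784 ± 776 in NC (-4.03, SE 1.59), C1qb had -3.38 (SE 1.67), Cfb -2.62 (SE 1.503) and C2 -2.46 (SE 1.77). C1qc (-0.36, SE 1.38) and Serping1 (-0.57, SE 1.39) were nearest to no change. By edgeR's quasi-likelihood test, adjusted over all genes by Benjamini-Hochberg, none of the 9 members passed (adjusted p = 1 for all), where 0% of 14567 genes did. At an unadjusted p under 0.05, 2 of 9 were lower in PC (C3 and C1qa), against 1.81% of all genes, and DESeq2 called C3 lower (0.529% of all genes) while limma-voom called no member (0.0137% of all genes lower). In 6 of 9 members both PC libraries lay below both NC libraries, as in 23.6% of all genes. The median over members was -2.46, and over all genes 0.10. Without NC 1, C1qc was at 0.05 and Serping1 at 0.54, so their direction rests on that library, and without NC 2 C1qa was at -2.29.

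After exosome pretreatment the DSS contrast, by the labels as given, pointed the other way. C1qa averaged 1440 ± 142 CPM in ExDSS and 28.4 ± 29.6 in Ex (log2 fold change 5.64, SE 1.72), and C3 637 ± 49.2 CPM in ExDSS and 45.4 ± 47.4 in Ex (3.79, SE 1.48). C1qb had 4.67 (SE 1.77), Cfb 3.56 (SE 1.57) and C2 3.36 (SE 1.85), against 1.46 (SE 1.41) for Serping1. edgeR's test called none of the 9 (adjusted p between 0.236 and 0.623) and 0% of all genes. At an unadjusted p under 0.05, C1qa, C1qb, C3 and Cfb, 4 of 9, were higher in ExDSS, against 3.55% of all genes. DESeq2 called 3 of 9 higher, C3, C1qa and C1qb (2.66% of all genes), and limma-voom none (0.542%). Both ExDSS libraries exceeded both Ex libraries in 7 of 9 members and in 17% of all genes. The members' median was 3.36 and that of all genes -0.29. Since Ex 2 was nearly empty of these genes, the values without it are given too: C1qa was then at 4.90, C1qb at 3.73, C3 at 3.05, Cfb at 2.66, C2 at 2.57, C1s1 at 1.72, C1qc and C4b at 1.19 and Serping1 at 0.55. C1qc and Serping1 were at 0.47 and 0.39 without ExDSS 2. The fit without Ex 1 leaves the nearly empty Ex 2 as the only Ex library and takes its spread from the other groups. Calls of that fit are therefore not read as results about the members.

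Exosome pretreatment before DSS was set against DSS alone. C1qa averaged 1440 ± 142 CPM in ExDSS and 48.1 ± 14.5 in PC (log2 fold change 4.91, SE 1.66). C2, with 43.0 ± 2.34 CPM in ExDSS and 2.22 ± 0.148 in PC, had 4.27 (SE 1.92), C3 had 4.04 (SE 1.49), C1qb 3.88 (SE 1.71) and Cfb 2.74 (SE 1.51). C1qc had 1.30 (SE 1.40), C4b 1.13 (SE 1.61) and Serping1 0.91 (SE 1.39). edgeR's test called none of the members (adjusted p between 0.228 and 0.845), where 0% of all genes passed. At an unadjusted p under 0.05, 4 of 9 were higher in ExDSS, C1qa, C1qb, C2 and C3, against 2.84% of all genes. DESeq2 called C1qa, C2 and C3 higher (2.51% of all genes) and limma-voom C1qa and C3 (0.645%). In 7 of 9 members both ExDSS libraries exceeded both PC libraries, as in 18.9% of all genes. The members' median was 2.74 while that of all genes was -0.51. C1qc and Serping1 turned to -0.34 and -0.16 without ExDSS 2.

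Exosomes alone were compared with saline. The mean of C3 was 45.4 ± 47.4 CPM in Ex and 729 ± 176 in NC (log2 fold change -3.99, SE 1.49), and C1qa had -4.76 (SE 1.65), C1qb -4.17 (SE 1.73) and Cfb -3.44 (SE 1.56). Serping1 had -1.12 (SE 1.40) and C1qc -1.17 (SE 1.40). Without Ex 2 these were -3.17 for C3, -3.95 for C1qa, -3.17 for C1qb, -2.46 for Cfb, -0.16 for Serping1 and -0.21 for C1qc. No member passed edgeR's test (adjusted p between 0.930 and 0.999), and 0% of all genes did. C1qa, C1qb, C3 and Cfb, 4 of 9, were lower in Ex at an unadjusted p under 0.05, against 2.42% of all genes. DESeq2 called C1qa and C3 lower (0.81% of all genes) and limma-voom none (0%). Both Ex libraries lay below both NC libraries in 7 of 9 members and in 22.9% of all genes, and the members' median was -2.10, against -0.27 for all genes. This contrast shares the NC libraries with that of PC against NC. The fit without Ex 1 rests here too on the nearly empty Ex 2 alone, and its calls are not read.

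The interaction asks whether the DSS effect differed with pretreatment, as the log2 fold change of ExDSS against Ex minus that of PC against NC. It was 9.66 (SE 2.34) for C1qa, 8.05 (SE 2.43) for C1qb, 8.03 (SE 2.11) for C3, 6.18 (SE 2.17) for Cfb and 5.82 (SE 2.56) for C2. It was 3.99 (SE 2.08) for C1s1, 2.71 (SE 2.29) for C4b, 2.47 (SE 1.98) for C1qc and 2.03 (SE 1.97) for Serping1. None passed edgeR's test: the smallest adjusted p were 0.0848 for C1qa and 0.110 for C3, and 0.288% of all genes were called. At an unadjusted p under 0.05, 5 of 9 members were positive, against 5.86% of all genes. DESeq2 called these same 5, C1qa, C1qb, C2, C3 and Cfb (4.07% of all genes), and limma-voom C1qa, C1qb and C3 (0.755%). In 6 of 9 members all ExDSS and NC libraries exceeded all PC and Ex libraries, as in 8.48% of all genes. The members' median was 5.82 and that of all genes -0.58. Without Ex 2, C3 was at 7.23, and the fit without Ex 1 again rests on the nearly empty Ex 2 alone.

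**Figure D4:**
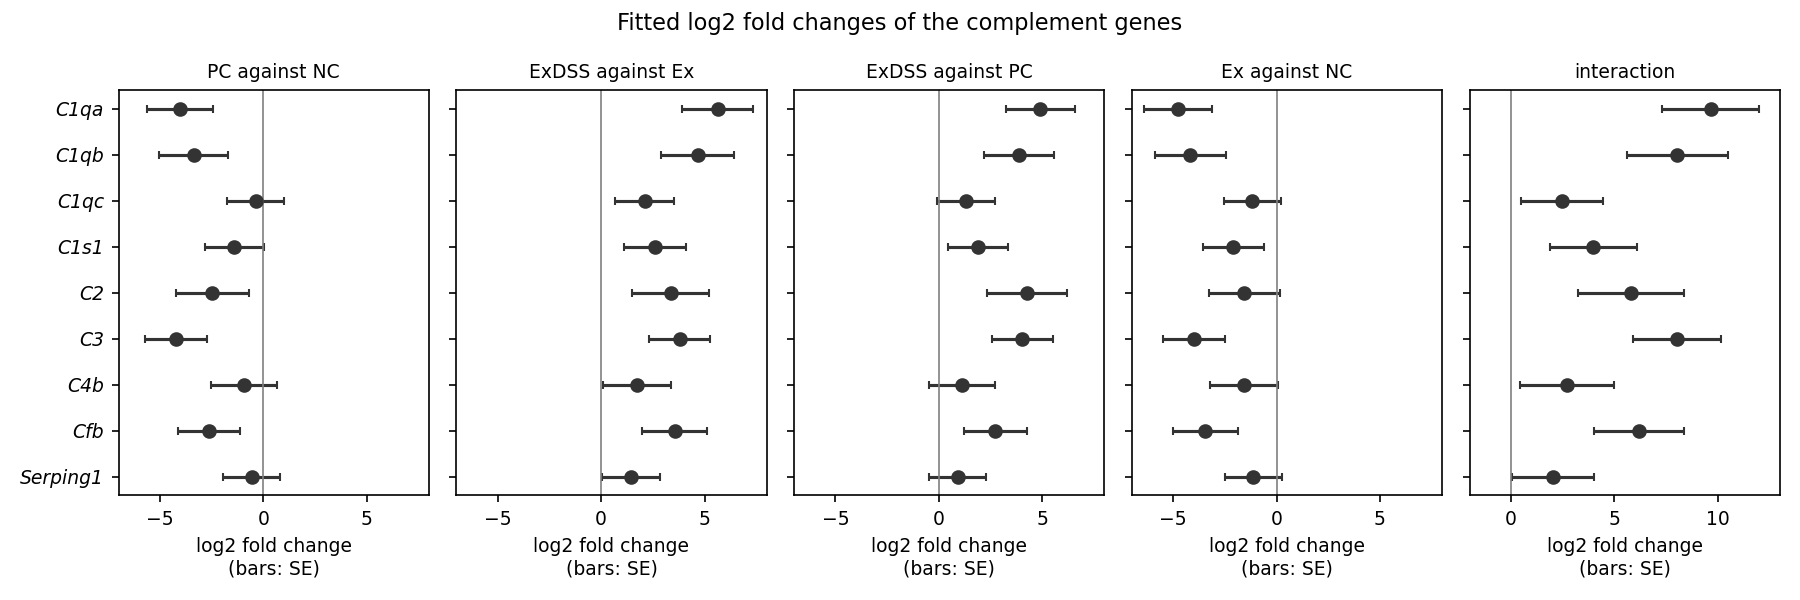
Fitted log2 fold changes (points) with SE (bars) of the 9 complement genes in each comparison; the x axes are log2 fold changes and the vertical line marks no change. C1qa, C1qb and C3 lie more than 3 log2 units from 0 in all 5 panels and C1qc, C4b and Serping1 less than 3, with C3 at -4.24 for PC against NC and 4.04 for ExDSS against PC.

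To set the other members against C1q, log2 ratios to the mean of the 3 chains were formed within each library and tested by an exact two-sided permutation test over the 8 libraries. The smallest p this allows is 0.0286. Of 12 tests, over 6 ratios with pooled DSS and interaction contrasts, none passed after Benjamini-Hochberg adjustment. A pass would need several ratios at the smallest p together. The ratio of Serping1 to C1q was lower by 2.65 log2 units in the ExDSS and NC libraries than in the PC and Ex libraries (-1.002 ± 1.197 against 1.65 ± 0.58, SD, n = 4 each; exact permutation p = 0.0286, adjusted p = 0.171). That of C4b to C1q differed by -2.67 (-4.04 ± 1.14 against -1.37 ± 1.73; exact permutation p = 0.0286, adjusted p = 0.171). These 2 ratios did not overlap between the sets of libraries. The ratios of C3 (0.20, exact permutation p = 0.857) and Cfb (0.42, exact permutation p = 0.457) to C1q gave interaction values of either sign: without Ex 2 they were 1.03 and -0.18, and in Ex 2 the ratios rest on 8 C3, 0 Cfb and 6 C1q counts. Without Ex 2 the difference was -2.37 for Serping1 and -1.80 for C4b, whose Ex 2 ratio of 1.22 stood above -2.17, -2.22 and -2.33 in PC 1, PC 2 and Ex 1. Because the chains disagreed, the choice of chain turned several of these ratios, and with C1qa alone the C3 ratio was -0.60 and the Cfb ratio -0.38.

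Of the other complement genes, 51 were listed and 35 passed the filter on low counts. edgeR's test called 0 of the 35 in each of the 5 comparisons. At an unadjusted p under 0.05, 0 were higher and 2 lower in PC against NC, 4 higher and 3 lower in ExDSS against Ex, 6 higher and 5 lower in ExDSS against PC, 0 higher and 4 lower in Ex against NC, and 7 positive and 2 negative in the interaction. Over all genes the shares at that threshold were 0.686% higher and 1.81% lower in PC against NC, 3.55% and 16.2% in ExDSS against Ex, 2.84% and 16.1% in ExDSS against PC, 2.89% and 2.42% in Ex against NC, and 5.86% positive and 13% negative in the interaction. Their median log2 fold change was -1.34, 1.87, 0.92, -1.36 and 2.33 in that order, in the same directions as the 9 members.

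C1ra, which encodes the C1r protease that activates C1s, was at 57.2 and 79.7 CPM in ExDSS, 17.0 and 21.5 in PC, 21.9 and 0 in Ex, and 140 and 74.3 in NC. Like C1s1 it was higher in each ExDSS and NC library than in each PC and Ex library. C1rb, its close copy, took 1.39% of their joint counts in NC 2 and between 7.33% and 29.8% in the 6 others with counts, so the split is uncertain. Cfp, which encodes properdin, the stabiliser of the alternative convertase, was at 238 and 114 CPM in ExDSS, 7.78 and 12.6 in PC, 14.0 and 1.49 in Ex, and 51.3 and 90.1 in NC (interaction 7.20, SE 1.996, edgeR adjusted p = 0.122). It split the libraries as C3 did. Cfd, which encodes factor D and is made in fat, did not: it was at 128 and 1613 CPM in ExDSS, 89.4 and 131 in PC, 426 and 1.49 in Ex, and 90.0 and 6.20 in NC. Adipocyte markers summed to 123 and 977 CPM in ExDSS, 321 and 367 in PC, 1312 and 14.9 in Ex, and 230 and 77.7 in NC, with the 2 highest sums in the same libraries as the 2 highest Cfd values. In ExDSS 2, Retn made 405 CPM of the sum, and the markers Plin1 and Lep were at 0. The part of fat cells in Cfd was not tested.

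Among regulators, Cd55, which encodes a membrane protein that dissociates the convertases, was at 6.03 and 146 CPM in ExDSS, 11.2 and 18.2 in PC, 22.5 and 0 in Ex, and 37.0 and 65.0 in NC. Cr1l, which encodes the rodent regulator Crry, hardly varied, with 66.1 and 60.9 CPM in ExDSS, 63.8 and 65.8 in PC, 70.2 in Ex 1, and 83.5 and 55.5 in NC. Clu, which encodes the terminal complex inhibitor clusterin, was at 768 and 112 CPM in ExDSS, 14.3 and 51.2 in PC, 30.8 and 13.4 in Ex, and 36.6 and 155 in NC.

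Among receptors on myeloid cells, Itgam and Itgax split the libraries as C3 did. Itgam, the alpha chain of complement receptor 3, was at 74.3 and 53.7 CPM in ExDSS, 4.58 and 5.26 in PC, 3.68 and 0 in Ex, and 43.2 and 85.5 in NC (interaction 8.50, SE 2.25, edgeR adjusted p = 0.111). Itgax, the alpha chain of complement receptor 4, was at 89.0 and 19.4 CPM in ExDSS, 2.18 and 2.51 in PC, 2.04 and 0 in Ex, and 10.7 and 41.2 in NC. Both were higher in every ExDSS and NC library than in every PC and Ex library. C3ar1, the C3a receptor, was at 13.4 and 42.0 CPM in ExDSS, 8.87 and 8.48 in PC, 14.0 and 0 in Ex, and 39.7 and 59.0 in NC, with ExDSS 1 near Ex 1. C5ar1, the C5a receptor, was at 63.3 and 1.51 CPM in ExDSS, 2.62 and 4.87 in PC, 4.50 and 0 in Ex, and 10.7 and 9.15 in NC. C1qbp, which encodes a mitochondrial protein first found as a C1q binder, ran the other way, with 0.823 and 16.1 CPM in ExDSS, 72.5 and 57.8 in PC, 49.1 and 90.7 in Ex, and 22.6 and 5.91 in NC. The 7 terminal components summed to between 0.381 and 11.9 CPM in every library, and 3 of them passed the filter.

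Genes known as targets of NF-kB and the acute phase, signals that induce C3, were listed beside the members. The 12 targets summed to 5833 and 3888 CPM in ExDSS, 267 and 275 in PC, 304 and 155 in Ex, and 4173 and 4525 in NC. The sum was higher in each ExDSS and NC library than in each PC and Ex library. Saa3 made 4373 and 2546 CPM of it in ExDSS and 2548 and 3406 in NC. Without Ex 2, 8 of the 12 targets were higher in each ExDSS and NC library than in PC and Ex 1. Nfkbia, Tnfaip3, Il6 and Icam1 were not, with Tnfaip3 at 0 in both ExDSS libraries and 8.22 and 7.61 CPM in PC. The stricter rule with Ex 2 included was met by 8.48% of all genes. In the interaction edgeR called 4 of 12 targets, all positive (list median 10.6), and 6 of 10 neutrophil markers, against 0.288% of all genes. In the other 4 comparisons it called 0 of both lists, as of all genes. At an unadjusted edgeR p under 0.05, the interaction was positive for 9 targets and negative for 1, against 5.86% and 13% of all genes.

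**Figure D5:**
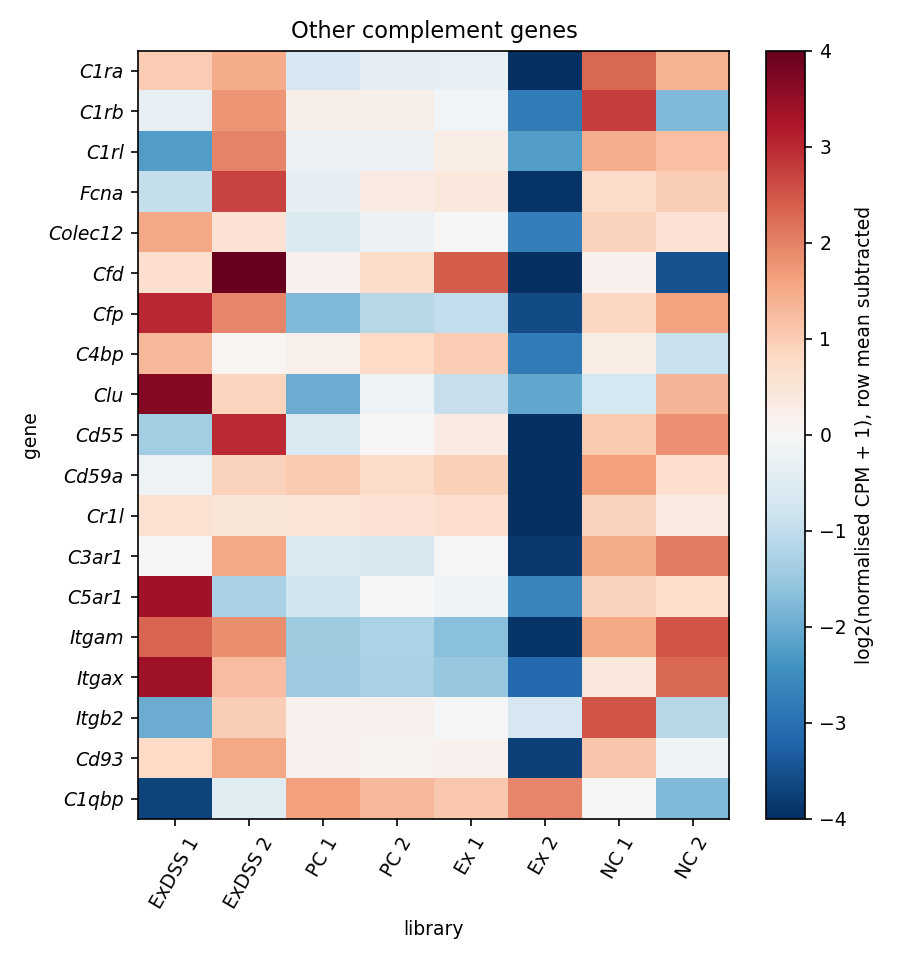
Log2(normalised CPM + 1) with the row mean subtracted for other complement genes with a mean of at least 5 CPM (rows) in the 8 libraries (columns); colours saturate at 4 log2 units. Cfp, Itgam and Itgax are above their row mean in the ExDSS and NC libraries and below it in the PC and Ex libraries, with Itgax at 89.0 CPM in ExDSS 1 and 2.18 in PC 1.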

How the data were processed

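Counts per gene line of QuantSeq 3′ mRNA libraries, deposited as whole numbers, were used as they stand. Per the labels' protocols, RNA was isolated with Trizol. Per the submitters' processing notes, the authors used Bowtie2, bedtools and edgeR and the build mm9, with no versions. The table's coordinates overlapped the GRCm38 gene of the same name for 21909 of 21982 genes (99.67%), so they are given as GRCm38 positions. Read assignment and use of strand: not given in the sources used here. Counts were tested with edgeR 4.0.16 (R 4.3.3): TMM factors, filterByExpr (10 counts scaled to the library size in the smallest group size, 15 in total; 14567 genes, all 9 members), robust quasi-likelihood F test, 1 coefficient per group over 8 libraries, Benjamini-Hochberg adjustment over all genes, calls under 0.05. SE is the absolute log2 fold change over the square root of F. Log2 CPM used a prior count of 2. DESeq2 1.42.0 and limma 3.58.1 (voom) were alternatives, beside other factors, filters and left-out libraries. The fit was tested on simulated data with large changes and a smaller spread than in these libraries. Replicate numbers in the titles were not taken as pairs. The members, gene lists and tests were chosen with earlier results of these data known. Named genes are the members, listed complement genes whose mean reaches 5 CPM, and for the C1q mean, C3, Cfb and Serping1 the 5 genes of closest pattern whose mean reaches 20 CPM, without gene-model placeholders. Some listed items are not reported here. Intervals and floors (3 counts) cover counting error only.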

Additional observations from a re-analysis of the deposited data

Results flagged for a closer look

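For 6 of the 9 members the DSS difference had opposite signs without and with exosomes in every library: both PC libraries lay below both NC libraries, and both ExDSS libraries above both Ex libraries. These signs are as labelled: 10 neutrophil markers summed to 11.4 and 10.7 CPM in PC and 2456 and 2236 in NC, against their labels. An exchange of the labels PC and NC was not tested. The interaction was 9.66 for C1qa, 8.05 for C1qb, 3.99 for C1s1, 5.82 for C2, 8.03 for C3 and 6.18 for Cfb on the log2 scale. edgeR's test of this difference passed for none of them (adjusted p between 0.0848 and 0.3002). The same 6 members met a stricter rule, with every ExDSS and NC library above every PC and Ex library, as did 8.48% of all genes. The share of all genes with opposite signs in the 2 pairs of groups was not counted, so the count of opposite signs is not read as a result about the members. Since Ex 2 was nearly empty of these genes, lying above both Ex libraries rests on Ex 1.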

How the results depend on the processing

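Over 21 alternatives (20 for the interaction), 847 of 936 log2 fold changes of members kept their direction and side of the threshold, 85 passed it and 4 reversed. Since no member was called in the main fit, keeping the side means only that it stayed uncalled. Most of the 85 came from the fit without Ex 1 and that without NC 2, ExDSS 1 and Ex 2, which leave groups with 1 library. With 2 libraries a group and Ex 2 nearly empty, differences under about 1 SE cannot be read. Larger ones are uncertain too, since none of the members passed edgeR's test in the main fit. No member was called in any comparison by edgeR with RLE or upper-quartile factors, total counts, acinar genes and Rn45s left out, the stricter filter, robust fitting off, only 2 groups or the replicate block. The cause of the changes below was not tested. In PC against NC, ExDSS against Ex, ExDSS against PC, Ex against NC and the interaction, in that order, genes called numbered 0, 0, 0, 0 and 42. Without a filter they numbered 45, 223, 132, 55 and 350, with 3 members in the interaction. With DESeq2 they numbered 83, 2005, 1488, 337 and 1616, with 1, 3, 3, 2 and 5 members, and with limma-voom 2, 505, 1160, 0 and 327, with 0, 0, 2, 0 and 3 members. The interaction count was 67 with RLE factors, 6 with total counts and 18 with the stricter filter. The replicate block gave 28 for ExDSS against Ex, 41 for ExDSS against PC and 161 for the interaction; deviations of same-numbered libraries correlated between -0.15 and 0.05 over genes, so the numbers were not read as pairs. Leaving out 1 library gave 0 to 4, 0 to 1883, 0 to 6, 0 to 1596 and 0 to 1663 genes and 0, 0 to 8, 0, 0 to 5 and 0 to 7 members, the highest of 1883, 1596 and 1663 and all member calls without Ex 1. The reversals, with ranges over left-out libraries, were in PC against NC without NC 1 (C1qc -0.67 to 0.0480, Serping1 -1.18 to 0.54) and in ExDSS against PC without ExDSS 2 (C1qc -0.34 to 2.03, Serping1 -0.16 to 1.501). The interaction was not run on only the 2 groups compared. Alternatives chosen after seeing the data left out NC 2 and ExDSS 1, which gave 0 interaction calls, and also Ex 2. That last fit estimates spread from the PC pair alone and gave 3910, 9839, 10720, 3603 and 9646 genes and 9, 9, 9, 7 and 9 members. There the fold of C3 was -3.96 in PC against NC and 7.02 in the interaction, and that of C1qa -2.29 and 7.22. The ratio tests could not pass after adjustment, given their smallest p, so their outcome says nothing of stability. Ratios that reversed were, with a prior count of 0.5, C2 in the interaction (0.0296); with C1qa alone, C3 (-0.60) and Cfb (-0.38) in the interaction and C2 for DSS (0.0677); with C1qb alone, C3 (-1.27) and Cfb (-1.05) in the interaction and Cfb (-0.36) and C1s1 (-0.33) for DSS; and with C1qc alone, C1s1 (1.45) and C2 (1.95) in the interaction. Leaving out 1 library, the ratio of C3 in the interaction ranged between -0.22 and 1.03, C2 between -0.70 and 0.0241, and Cfb between -0.18 and 0.82. For DSS the ratio of C1s1 ranged between -0.16 and 0.83, Cfb between -0.36 and 0.64, Serping1 between -1.54 and 0.00925 and C4b between -2.03 and 0.0709.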
